A study of Bos taurus with 30 samples.

Results

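MX1, USP18, XAF1 and IFITM1 are genes that cells switch on in response to interferon, and their mRNA was followed here in lymphocytes of cows given the glucocorticoid prednisolone and of control cows. They were taken as the features of the array's values table whose platform annotation maps to 1 of the 4 symbols. This gave 8 features, 2 for each gene, of 44407 features on the array, and all 8 had a value on every one of the 30 arrays. The symbols were picked with measured values of these same animals known, so the differences between groups are given for the 4 genes as a description. No p-value is given for any of the 4 in a comparison of groups. Where a threshold call is counted, it only stands beside the share of all genes or is followed through fits under other settings.

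The samples came from 15 Bos taurus cows, each sampled at 2 times that the labels call T1 and T2. There were 8 prednisolone animals (30 mg per head each day by mouth for 35 days) at T2 and again at T1, and 7 control animals at T2 and again at T1. The labels place the collection at a slaughterhouse and do not say where T1 or T2 falls relative to the dosing, and the dosing text stands on the control samples too. Breed and age were not given in the sources used here. Total RNA was labelled with 1 dye, Cyanine 3, and 1 Agilent bovine oligonucleotide array was hybridised per sample, so each group holds 1 array per animal.

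Type I interferons bind a receptor of 2 chains, IFNAR1 and IFNAR2, and signal through JAK kinases and STAT factors to switch on a large set of genes, many of which block viruses. MX1 is a dynamin-like GTPase that traps viral components, and in cattle its mRNA in blood leukocytes is a familiar readout of interferon action. IFITM1 is a membrane protein that hinders entry of viruses into cells. USP18 removes the ubiquitin-like modifier ISG15 from proteins and, in human and mouse cells, sits at IFNAR2 and dampens signalling from the receptor. XAF1 was described in human cells as a partner that opposes the apoptosis inhibitor XIAP.

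The array lists USP18 under bubp43 and XAF1 under BIRC4BP. Both were given their current symbols through their accessions, MX1 was matched the same way, and IFITM1 keeps the platform's symbol, since its accession had no match in the RefSeq gene table used for names. The files name no genome build, and positions are not reported here. MX and IFITM genes have close relatives in cattle, and whether these probes also bind the relatives' mRNA was not tested. Values below are log2 of the array's processed intensity after scaling each array to a common 75th percentile, averaged over the 2 features of a gene. Levels are compared only within a gene, never between genes.

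Few facts of the arrays bear on the 4 genes. Each array had between 34506 and 38801 features with a value, and the median intensity over the 23055 features complete on all arrays lay between 997 and 1040. A principal component analysis gave its first axis 21.9% of the variance and placed the prednisolone T2 arrays at 8.81 to 13.83, the prednisolone T1 arrays at -22.16 to -3.30, and the control arrays at -5.33 to 3.97 over both times. The T1 arrays of prednisolone animals 28 and 32 stood apart there, at -21.93 and -22.16. The lymphocyte label was checked against cell markers: 7 of 11 listed T cell genes and 7 of 9 natural killer cell genes were measured, but only CD79A of 7 B cell genes. Of the monocyte genes 6 of 11 were measured, CD14 among them, and no measured gene of these 4 lists fell to the lowest intensity kept. Differences in the share of a cell type and differences in RNA per cell cannot be told apart in such bulk samples.

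The 2 features of each gene repeated one another closely on most arrays. The median gap between them was 0.05 on the log2 scale for MX1, 0.05 for USP18, 0.05 for XAF1 and 0.08 for IFITM1, and their correlations over 30 arrays were 0.996, 0.935, 0.855 and 0.988 in the same order. A gap over 0.5 appeared 3 times. For USP18 the pair read 2247.3 and 1201.8 in control animal 22 at T1, and 1668.0 and 803.5 in control animal 23 at T2. For XAF1 it read 12819.7 and 8165.7 in prednisolone animal 29 at T2. With the brighter feature alone the sign of a group difference turned only for the T2 minus T1 differences near 0 in controls (MX1 -0.005, XAF1 -0.01).

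MX1 was higher in prednisolone animals at T2 than in any other group. In the 8 prednisolone animals at T2 its lowest, median and highest log2 values were 10.74, 11.52 and 13.03, against 9.36, 10.52 and 11.41 in the 7 control animals at T2. All 8 prednisolone animals lay above the control mean and 5 lay above the highest control, so the groups overlapped in their lower part. At T1 the values were 10.20, 10.82 and 11.66 in prednisolone animals, against 9.31, 10.38 and 11.05 in controls, and 2 of 8 prednisolone animals exceeded every control. Prednisolone minus control was 1.29 ± 0.34 at T2 (SE), or 2.45-fold, and 0.49 ± 0.25 at T1. The group means were 11.65 ± 0.72 in prednisolone T2, 10.35 ± 0.68 in control T2, 10.84 ± 0.43 in prednisolone T1 and 10.35 ± 0.59 in control T1 (SD, n = 8 for prednisolone and 7 for control). In order of level, prednisolone T2 stood first and prednisolone T1 next, and the 2 control means did not differ beyond their spread.

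USP18 was highest in prednisolone animals at T1 and lowest in the same animals at T2. At T2 its lowest, median and highest values were 9.64, 10.13 and 11.38 in prednisolone animals, against 10.09, 10.78 and 11.63 in controls. At T1 they were 10.77, 11.56 and 12.25 in prednisolone animals, against 10.28, 10.86 and 11.80 in controls. Thus 4 of 8 prednisolone animals lay below every control at T2, while 3 of 8 lay above every control at T1. Prednisolone minus control was -0.59 ± 0.27 at T2 and 0.59 ± 0.25 at T1 (SE), opposite in sign at the 2 times. The means were 10.19 ± 0.53 in prednisolone T2, 10.78 ± 0.58 in control T2, 11.57 ± 0.51 in prednisolone T1 and 10.98 ± 0.52 in control T1 (SD). In order of level, prednisolone T1 came first, then both control groups, which differed by less than 1 SD, then prednisolone T2, and the outer steps were slightly over 1 SD each.

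XAF1 moved over a narrow range, with the top values again in prednisolone animals at T2. Its lowest, median and highest values there were 12.99, 13.21 and 13.79, against 12.58, 12.87 and 13.63 in controls at T2. All 8 prednisolone animals exceeded the control mean at T2, but only 1 exceeded every control. At T1 the values were 12.67, 12.84 and 13.23 in prednisolone animals, against 12.81, 13.00 and 13.10 in controls, and the ranges overlapped throughout. Prednisolone minus control was 0.26 ± 0.15 at T2 and -0.07 ± 0.09 at T1 (SE). The means were 13.24 ± 0.25 in prednisolone T2, 12.97 ± 0.34 in control T2, 12.89 ± 0.17 in prednisolone T1 and 12.97 ± 0.11 in control T1 (SD). Prednisolone T2 stood first, by less than the control T2 SD, and neighbours among the other 3 groups differed by less than 1 SD of either.

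IFITM1 had its low group elsewhere, in controls at T1. At T2 its lowest, median and highest values were 10.85, 11.32 and 12.10 in prednisolone animals, against 11.12, 11.38 and 11.82 in controls. At T1 they were 10.46, 10.96 and 11.39 in prednisolone animals, against 9.94, 10.18 and 11.26 in controls. All 8 prednisolone animals exceeded the control mean at T1, and the ranges at T2 overlapped almost fully. Prednisolone minus control was -0.06 ± 0.16 at T2 and 0.56 ± 0.19 at T1 (SE). The means were 11.34 ± 0.39 in prednisolone T2, 11.39 ± 0.22 in control T2, 10.94 ± 0.27 in prednisolone T1 and 10.38 ± 0.49 in control T1 (SD). Both T2 groups stood highest and did not differ beyond their spread, prednisolone T1 came next, and control T1 was lowest by more than 1 SD of either group.

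**Figure D1:**
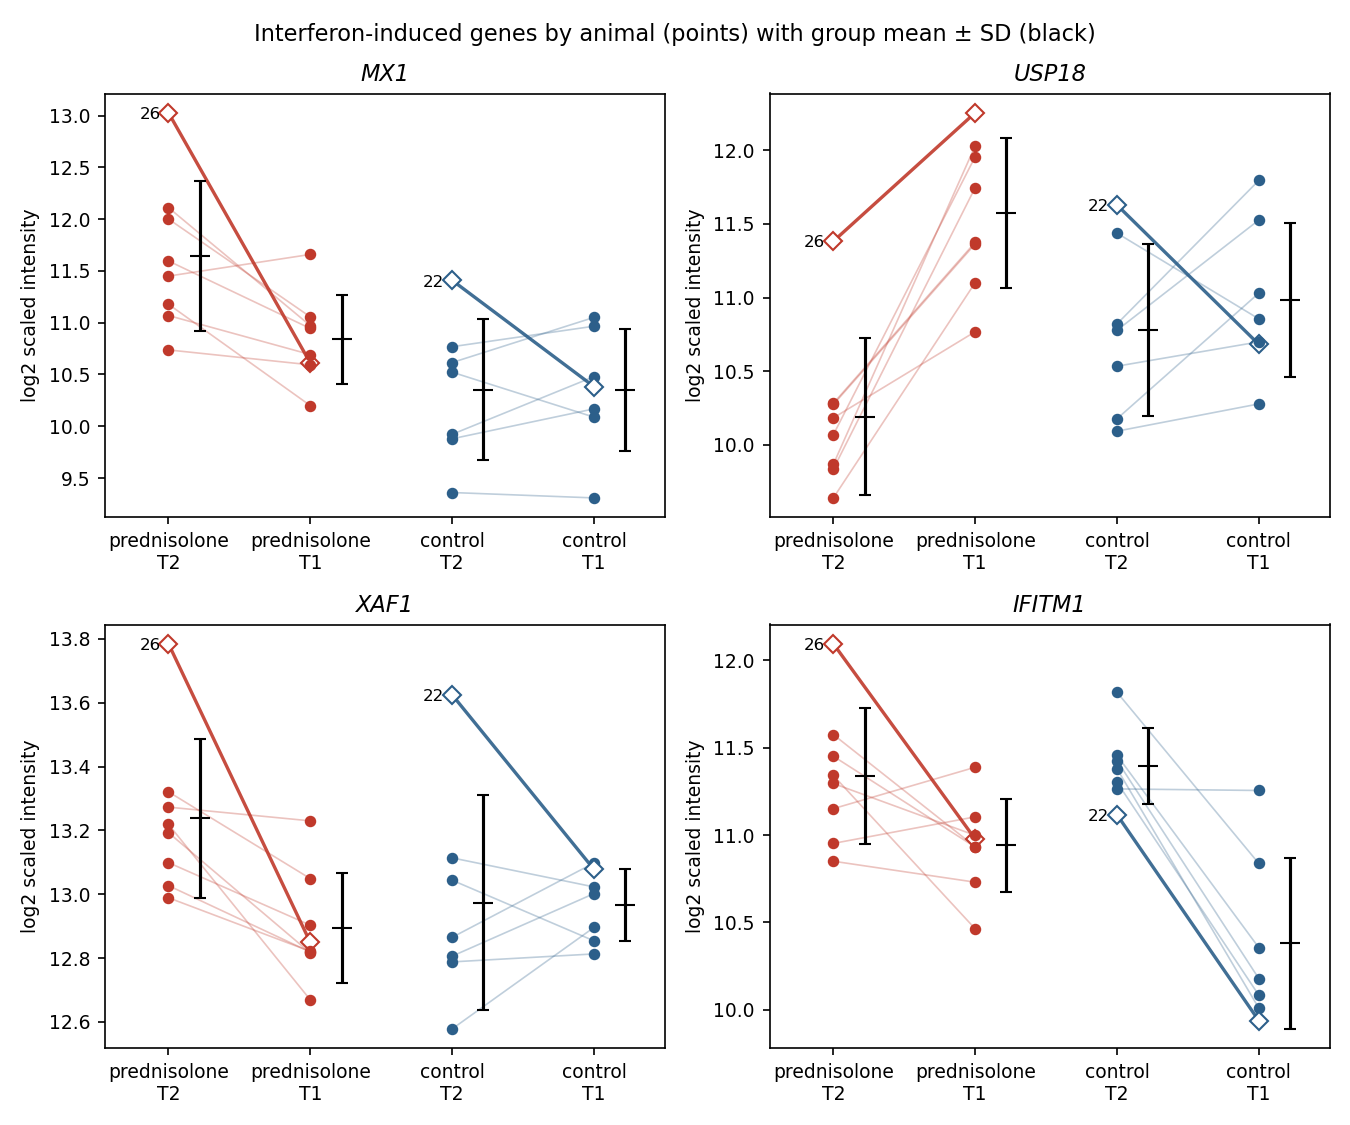
Log2 scaled intensity (vertical axis) of MX1, USP18, XAF1 and IFITM1 in each animal, with prednisolone T2, prednisolone T1, control T2 and control T1 from left to right. Points are animals, lines join the 2 arrays of an animal, black marks are the group mean ± SD, and open diamonds are animals 26 and 22. The 8 prednisolone animals reach 10.74 to 13.03 for MX1 at T2, while the lowest USP18 values, from 9.64, are in the same group.

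The test behind these numbers was limma, run over 2403 named genes with enough signal, with Benjamini-Hochberg adjustment at 0.05. At T1 no one of the 4 genes passed, where 0.333% of all genes did, 0.125% as higher and 0.208% as lower. At T2 only MX1 passed, where 18.6% of all genes passed in either direction, 11.0% as higher and 7.57% as lower. As the 4 genes were chosen from these contrasts, nothing is read from such counts. With each of the 15 animals left out in turn, the MX1 difference at T2 lay between 1.10, without prednisolone animal 26, and 1.47, without control animal 22.

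Because every animal was sampled at both times, the change could also be followed animal by animal, and the 2 treatments share no array in it. MX1 was higher at T2 than at T1 in 7 of 8 prednisolone animals, by 0.81 ± 0.80 on average (SD), with single animals between -0.21 and 2.42. In the controls it was higher in 3 of 7, with single animals between -0.56 and 1.03. USP18 was lower at T2 in 8 of 8 prednisolone animals, by between -2.16 and -0.59, and in 5 of 7 controls, whose changes ran from -0.97 to 0.95. In 7 of 8 prednisolone animals MX1 was higher while USP18 was lower in the same animal, and this held in 2 of 7 controls.

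XAF1 was higher at T2 in 8 of 8 prednisolone animals, by 0.04 to 0.94, and in 3 of 7 controls. IFITM1 followed another course: it was higher at T2 in 6 of 8 prednisolone animals and in all 7 controls. Its mean change was 0.40 ± 0.48 in prednisolone animals and 1.02 ± 0.46 in controls (SD). Control animal 17, with 0.01, was the one control in which IFITM1 hardly moved. All 4 genes were higher at T2 together in 0 of 8 prednisolone animals and in 1 of 7 controls, namely animal 22.

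**Figure D2:**
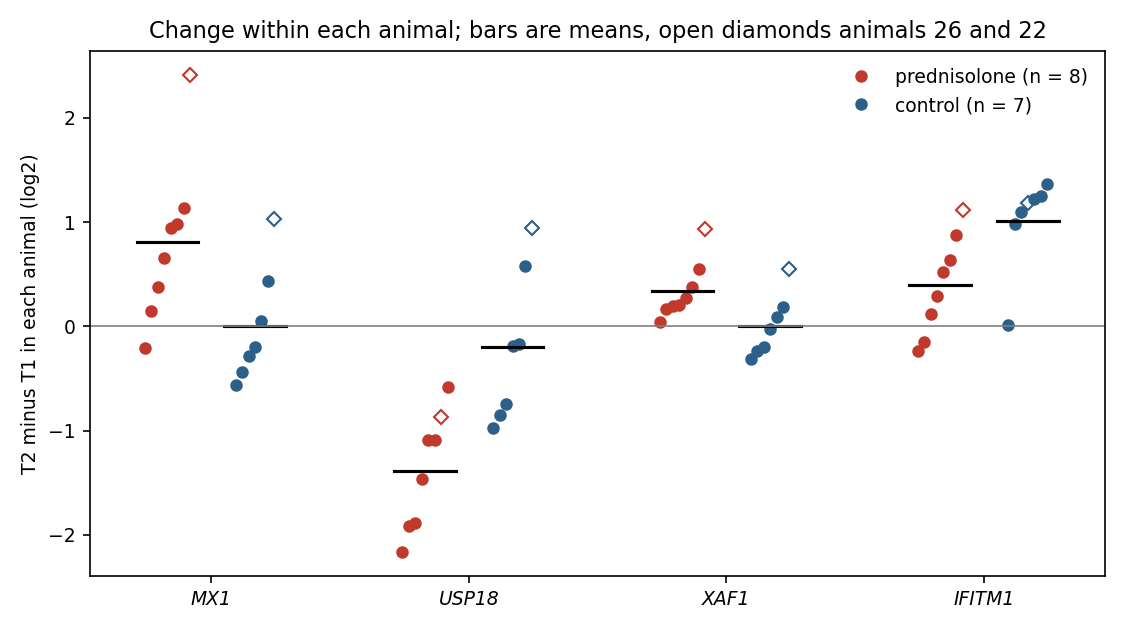
Log2 value at T2 minus T1 within each animal (vertical axis) for the 4 genes, with 8 prednisolone animals left of 7 controls for each gene. Bars are means and open diamonds are animals 26 and 22. All 8 prednisolone animals lie below 0 for USP18 and above 0 for XAF1, and all 7 controls lie above 0 for IFITM1.

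Over the arrays of one treatment, T2 minus T1 in prednisolone animals was 0.81 ± 0.28 for MX1, -1.38 ± 0.24 for USP18, 0.34 ± 0.11 for XAF1 and 0.40 ± 0.16 for IFITM1 (SE). The USP18 level was thus 2.61-fold lower at T2. In controls the same differences were 0.005 ± 0.31, -0.20 ± 0.27, 0.008 ± 0.13 and 1.02 ± 0.19. The IFITM1 value in controls corresponds to 2.02-fold. The fits behind these differences took the 2 times as separate groups and did not use the pairing of an animal's arrays. With the animal as a block the SEs in the same gene order were 0.25, 0.18, 0.10 and 0.15 in prednisolone animals. In controls they were 0.18, 0.23, 0.11 and 0.15. MX1, USP18 and XAF1 passed in prednisolone animals, where 38.0% of all genes passed (21.9% as higher and 16.1% as lower), and no one of the 4 did in controls, where the share was 0.0%. That share stands for 0 genes by limma. Without adjustment 242 genes had a p under 0.05, and the adjusted test passed 3 genes with the animal as a block and 6 in 1 fit of all 30 arrays. IFITM1 was among those 6, and it also passed in controls when animal 17 was left out.

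With each of the 8 prednisolone animals left out in turn, the T2 minus T1 difference of MX1 lay between 0.58, without animal 26, and 0.95. That of USP18 lay between -1.50 and -1.27, that of XAF1 between 0.26 and 0.39, and that of IFITM1 between 0.30 and 0.49, the smallest XAF1 and IFITM1 values again without animal 26. MX1 passed in 3 of these 8 fits, and not in the fit without animal 26. USP18 passed in 8, XAF1 in 7 and IFITM1 in 2. The change in prednisolone animals minus the change in controls was -1.18 ± 0.38 for USP18, 0.80 ± 0.43 for MX1, 0.34 ± 0.17 for XAF1 and -0.62 ± 0.25 for IFITM1. USP18 alone passed there, where 18.1% of all genes passed (9.36% with a positive and 8.78% with a negative difference). The USP18 value was -1.14 ± 0.43 without animals 28 and 32, whose T1 arrays stood apart, and it then missed the threshold. With 1 animal left out it passed in 10 of 15 fits.

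The contrasts above share arrays. The prednisolone T2 arrays enter both the T2 comparison with controls and the change within prednisolone animals, so the values of a gene in the pair are not separate support.

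Prednisolone animal 26 had the highest value of its group at T2 in all 4 genes, and control animal 22 had the highest of its group in MX1, USP18 and XAF1. In animal 26 USP18 read 11.38, with the next animal at 10.28, and XAF1 read 13.79, with the next at 13.32. MX1 read 13.03 and IFITM1 12.10 in that animal. In animal 22 MX1 read 11.41, USP18 11.63 and XAF1 13.63, while its IFITM1 value of 11.12 was the lowest of the 7 controls. At T1 neither animal led its group in MX1, XAF1 or IFITM1, though animal 26 had the highest USP18 of the 8.

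The other interferon-induced antiviral genes were then read in these 2 animals. The animals were singled out after their values had been seen. Animal 26 was the highest of 8 in 11 of 15 such genes at T2, where it was the highest in 22.4% of 2358 genes with a value in the whole group. Animal 22 was the highest of 7 in 8 of 15, against 9.0% of 2377 genes. ISG15, the modifier that USP18 removes, read 14.71 in animal 26, against 10.14 to 11.90 in the other 7, and 13.96 in animal 22, against 9.84 to 12.02 in the other 6. OAS1X, of the family of RNA sensors that activate RNase L, read 9.01 in animal 26, against 6.42 to 6.98 in the others of its group. MX2, the relative of MX1, read 8.79 in animal 26 against 5.96 to 7.21, and 7.80 in animal 22 against 5.47 to 6.34.

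**Figure D3:**
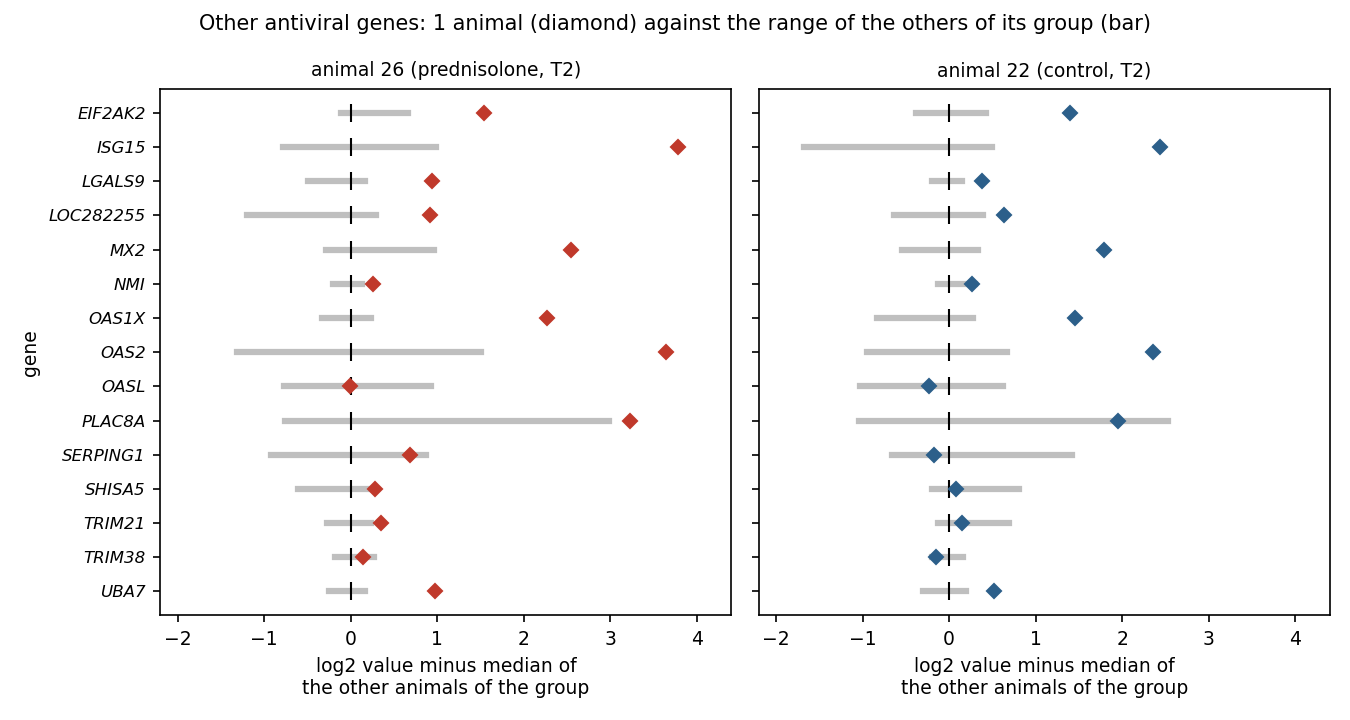
Log2 value of 15 other interferon-induced antiviral genes at T2 in animal 26 (left, prednisolone) and animal 22 (right, control), as the distance from the median of the other animals of the same group (horizontal axis). Diamonds are the animal and grey bars the range of the others. Animal 26 lies right of every other animal of its group in 11 genes and animal 22 in 8.

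Leaving out both animals changed some of the values of the 4 genes. Prednisolone minus control at T2 was then 1.27 ± 0.27 for MX1, -0.62 ± 0.20 for USP18, 0.29 ± 0.09 for XAF1 and -0.21 ± 0.13 for IFITM1 (SE). T2 minus T1 in prednisolone animals was 0.58 ± 0.24 for MX1, -1.46 ± 0.19 for USP18 and 0.26 ± 0.09 for XAF1. The MX1 difference at T2 was therefore about as large without them, while the MX1 change within prednisolone animals was smaller.

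Whether the 4 genes varied together from animal to animal was tested on what the group means leave, each animal's deviation from its group mean, in 16 relations over 15 animals. No relation passed after adjustment: the lowest Benjamini-Hochberg adjusted permutation p was 0.118. At T2 the deviations of MX1 and USP18 had r = 0.63 (permutation p = 0.0189, two-sided) and rho = 0.45 (permutation p = 0.107). Without animals 22 and 26 this r was 0.14, and USP18 with XAF1 had r = 0.65 with them (permutation p = 0.0176, rho = 0.37 with permutation p = 0.201) and -0.02 without. MX1 with XAF1 had r = 0.60 (permutation p = 0.0237, rho = 0.24 with permutation p = 0.407) and -0.07 without the pair. All 3 relations rest on these animals. At T1 USP18 with IFITM1 had r = 0.58 (permutation p = 0.0295, adjusted 0.118) and rho = 0.66 (permutation p = 0.0109, adjusted 0.174), and r = 0.54 without the 2 animals of most extreme USP18.

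**Figure D4:**
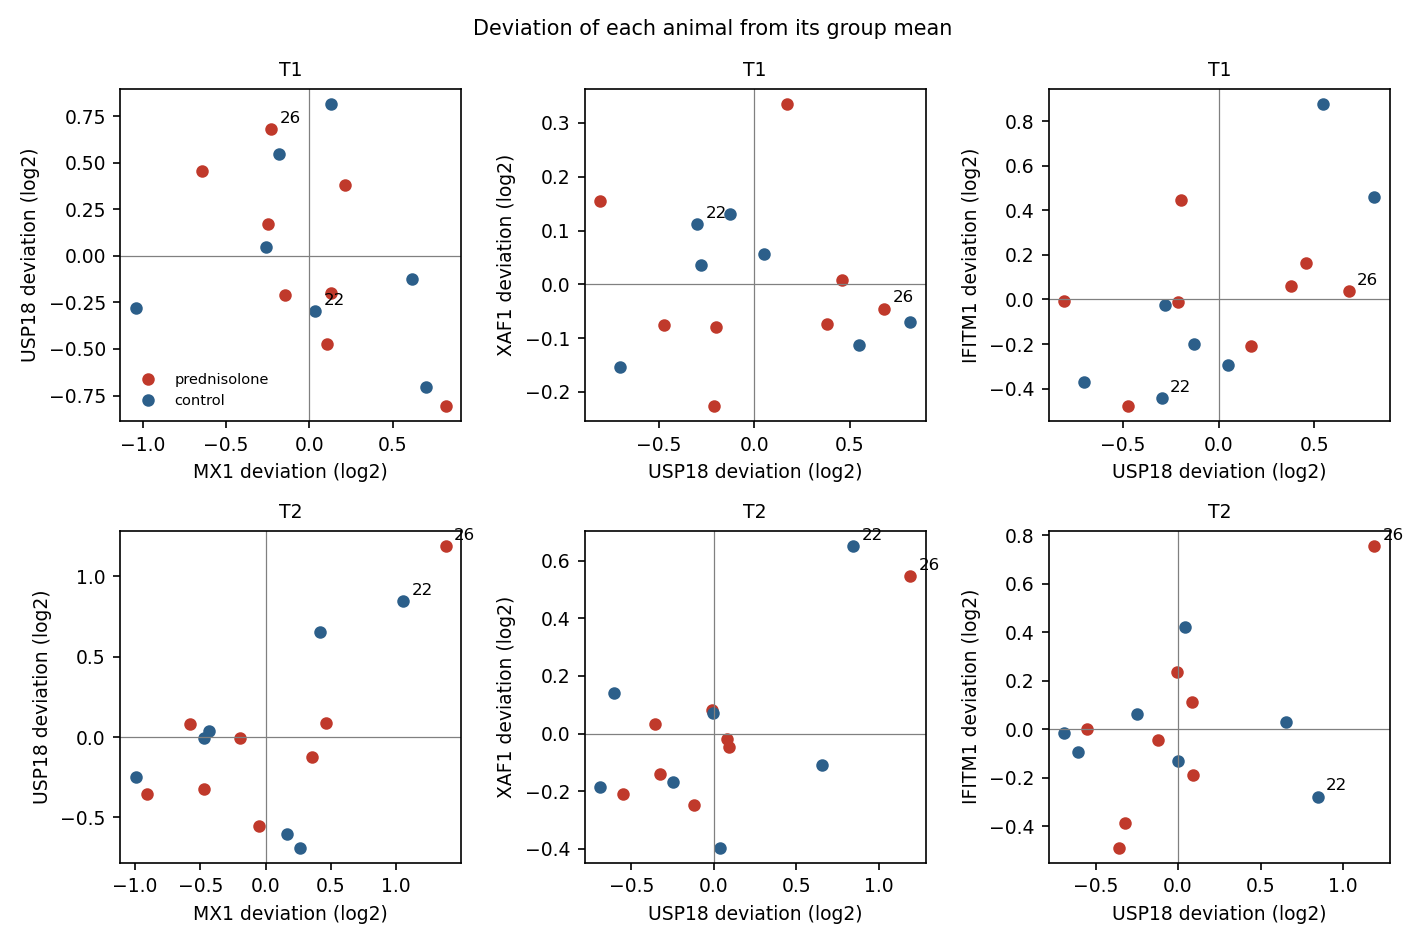
Deviation of each animal's log2 value from its group mean for pairs of the 4 genes at T1 (top) and T2 (bottom), with prednisolone animals in red and controls in blue. Animals 22 and 26 are numbered where they lie at T2 toward the upper right for MX1 with USP18 (r = 0.63 with them, 0.14 without) and for USP18 with XAF1.

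The standing of an animal at T1 was then set against its standing at T2. The deviations at T1 and T2 had r = 0.38 for MX1 (permutation p = 0.176), 0.27 for USP18 (0.353), 0.27 for XAF1 (0.315) and 0.13 for IFITM1 (0.606), with rho of 0.45 (0.107), 0.25 (0.383), 0.37 (0.182) and 0.11 (0.682). Leaving out the 2 animals farthest out at T1 gave r = 0.30, 0.01, 0.32 and 0.29 in the same order. Within prednisolone animals r was 0.12, 0.42, 0.14 and -0.03, and within controls it was 0.62, 0.12, 0.48 and 0.36. No one of the pooled relations passed, which with 15 animals does not show that T1 and T2 were unrelated.

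Genes with the most similar course over the 30 arrays were looked up for each gene, among 2180 genes with a value on all arrays. These correlations include the differences between groups, which all arrays share, and carry no test. For MX1 the first 5 were LOC531899 (r = 0.78), ARRB1, an adaptor of G protein-coupled receptors (0.75), NPFF, a neuropeptide precursor (0.73), RBM14 (0.72) and CDIP1 (0.71). For USP18 they were AGO2, a core of the RNA silencing complex (0.84), PTGER4, a prostaglandin E2 receptor (0.80), BTG1 (0.79), EIF4E, the mRNA cap-binding factor (0.76), and CXCR4, a chemokine receptor (0.76). For IFITM1 they were EIF3L (0.81), FLOT2 (0.77), PPP1R7 (0.77), LOC514503 (0.76) and PEBP1 (0.75).

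XAF1 was the one of the 4 whose first 5 held listed antiviral genes, MX2 (r = 0.73) and EIF2AK2, the RNA-activated kinase PKR (0.70). The others were ADI1 (0.67), DHX58, a relative of the RNA sensor RIG-I (0.64), and LOC518134 (0.64). Between XAF1 and MX2 the correlation was 0.69 on deviations from the group means. Animals 26 and 22 had the highest XAF1 and the highest MX2 of their groups at T2, and this correlation was not computed without them. The 4 genes were not each other's nearest. USP18 stood at rank 1685 of the 2180 for MX1 (r = -0.16), whereas XAF1 stood at rank 88 (r = 0.56) and IFITM1 at rank 579 (r = 0.29).

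Other genes of the interferon system were read from lists of ligands, receptors, sensors and targets, 41 genes tested of 48 named on the array. For these the adjusted p is from limma over all 2403 genes. At T2 5 were higher and 2 lower in prednisolone animals than in controls, 17.07% of 41, close to the 18.6% of all genes. Between T1 and T2 in prednisolone animals 7 rose and 4 fell, 26.83%, under the 38.0% of all genes. At T1 and within controls 0 passed, with 6 genes at T1 and 0 within controls at an unadjusted p under 0.05 by limma. Of all 2403 genes, 522 at T1 and 242 within controls had such a p. With the animal as a block 1 of the 41 passed at T1 and 0 within controls, where 231 of all 2403 genes passed at T1. Under that block the counts of the 41 were 4 at T2, 17 within prednisolone animals and 11 for the interaction, against 7, 11 and 5 without it. Those 5 were 12.2% of 41, under the 18.1% of all genes for the interaction. With the block 372 of 2403 genes passed at T2. The shares of all genes for the other block counts are not given here, so nothing is read from those counts. The median difference over the 41 was 0.09 at T2 and 0.02 within prednisolone animals, beside 0.04 for all genes in both.

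Of 15 other antiviral genes, the group to which the 4 belong, 0 passed at T2 by limma and 0 with the animal as a block, while 1 had p under 0.05 before adjustment. Of all 2403 genes, 18.6% passed at T2 by limma and 719 had p under 0.05 before adjustment. Within prednisolone animals 2 rose between T1 and T2, where 21.9% of all genes rose. The list's median difference at T2 was 0.17, beside 0.04 for all genes. The risers were SHISA5, an apoptosis-linked membrane protein (0.66 ± 0.16 SE, limma adjusted p = 0.00469), and NMI, a partner of STAT factors (0.35 ± 0.11, adjusted p = 0.0237). SHISA5 missed the threshold without animals 28 and 32 (adjusted p = 0.0741), and NMI missed it without animal 26 (0.0651) and without animal 25 (0.0557). With the animal as a block EIF2AK2 passed there too (0.58 ± 0.14, adjusted p = 0.00982), and SERPING1, a complement inhibitor, fell (-0.54 ± 0.10, adjusted p = 0.00288). For the interaction 0 of the 15 passed without the block, where 18.1% of all genes passed. With it EIF2AK2, NMI and SERPING1 passed (adjusted p = 0.0233, 0.023 and 0.0455). The shares of all genes passing with the block within prednisolone animals and for the interaction are not given here. MX2 had a difference of 0.43 ± 0.41 at T2 (adjusted p = 0.532) and ISG15 one of -0.25 ± 0.64 (adjusted p = 0.848), and neither passed. Without animals 22 and 26, EIF2AK2 (0.57 ± 0.16, adjusted p = 0.0339) and UBA7, the enzyme that activates ISG15 (0.37 ± 0.10, adjusted p = 0.0288), passed as higher at T2. Of all 2403 genes, 181 passed as higher in that fit. Whether the MX1 difference exceeds those of the 15 antiviral genes was not tested.

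Of 5 receptor and signalling genes, 1 was lower in prednisolone animals than in controls at T2, and 3 fell between T1 and T2 in prednisolone animals, the group in which USP18 was lowest at T2. Of all genes, 7.57% were lower at T2, 16.1% fell within prednisolone animals and 8.78% passed with a negative interaction. IFNAR2, the chain at which USP18 acts, differed at T2 by -0.60 ± 0.10 (limma adjusted p = 0.00134), with means of 12.08 ± 0.18 and 12.69 ± 0.22 (SD, n = 8 and 7). T2 minus T1 in prednisolone animals was -0.83 ± 0.15 (adjusted p = 0.000485). IFNAR1 (-0.56 ± 0.14, adjusted p = 0.00536) and STAT3, a signal transducer shared with cytokine receptors (-0.54 ± 0.11, adjusted p = 0.00147), fell in that contrast too. These 3 of 5 tested genes also changed more in prednisolone animals than in controls, IFNAR1 by -0.62 ± 0.17 (adjusted p = 0.0146), STAT3 by -0.55 ± 0.19 (adjusted p = 0.0421) and IFNAR2 by -0.57 ± 0.20 (adjusted p = 0.0465). In fits that left out an animal, IFNAR1 passed in 15 of 15 and STAT3 and IFNAR2 each in 4 of 15. IFNAR2 ranked 19 among the genes most similar to USP18 over the 30 arrays (r = 0.66). That value includes the differences between groups, and on deviations from the group means r was 0.355.

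Among the 10 sensors and IRF factors that lead to interferon production, 3 were higher and 1 was lower at T2. Of all genes, 11.0% were higher and 7.57% lower there. TLR7, an endosomal receptor of single-stranded RNA, was higher in prednisolone animals by 1.48 ± 0.27 (limma adjusted p = 0.00164) and IRF1, a transcription factor of interferon genes, by 0.82 ± 0.15 (adjusted p = 0.00174). MYD88, the adaptor of TLR7, was higher by 0.36 ± 0.09 (adjusted p = 0.0108), though not in the mean of all its features (adjusted p = 0.683). TICAM1, the adaptor of TLR3, was lower by -0.29 ± 0.09 (adjusted p = 0.0361) and missed the threshold with the animal as a block (adjusted p = 0.214) and in 9 of 15 fits that left out an animal. TLR7 rose by 1.78 ± 0.28 between T1 and T2 in prednisolone animals (adjusted p = 0.000135), together with MYD88 (0.46 ± 0.07, adjusted p = 6.6e-05, and 0.175 in the mean of all its features), IRF1 and TLR3. TLR3 lies outside the naming rule and was named after its value was seen (0.70 ± 0.25, adjusted p = 0.0363). TICAM1 was the 1 gene of the 10 that fell in that contrast (-0.58 ± 0.18, limma adjusted p = 0.0159).

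Of the ligands only IFNG was tested, and it did not pass in any comparison without the block. With the animal as a block it rose between T1 and T2 in prednisolone animals (0.59 ± 0.16, adjusted p = 0.0166). Among 11 genes induced by interferon gamma, 3 were higher at T2: IRF1 and the immunoproteasome subunits PSMB10 (0.34 ± 0.10, limma adjusted p = 0.0261) and PSMB8 (0.28 ± 0.09, adjusted p = 0.0362). Of all genes, 11.0% were higher at T2. PSMB10 and PSMB8 missed the threshold with the animal as a block (adjusted p = 0.118 and 0.148), and PSMB8 passed in 5 of 15 fits that left out an animal. IRF1 and PSMB10 rose between T1 and T2 in prednisolone animals, and both missed the threshold without animals 28 and 32 (adjusted p = 0.0688 and 0.114). Of the partners of XAF1 and USP18, BIRC5, an inhibitor of apoptosis also tied to cell division, rose in that contrast by 1.01 ± 0.25 (adjusted p = 0.00509). In controls its difference was 0.82 ± 0.22 (adjusted p = 0.298), and the change in prednisolone animals minus that in controls was 0.19 ± 0.35 (adjusted p = 0.756).

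**Figure D5:**
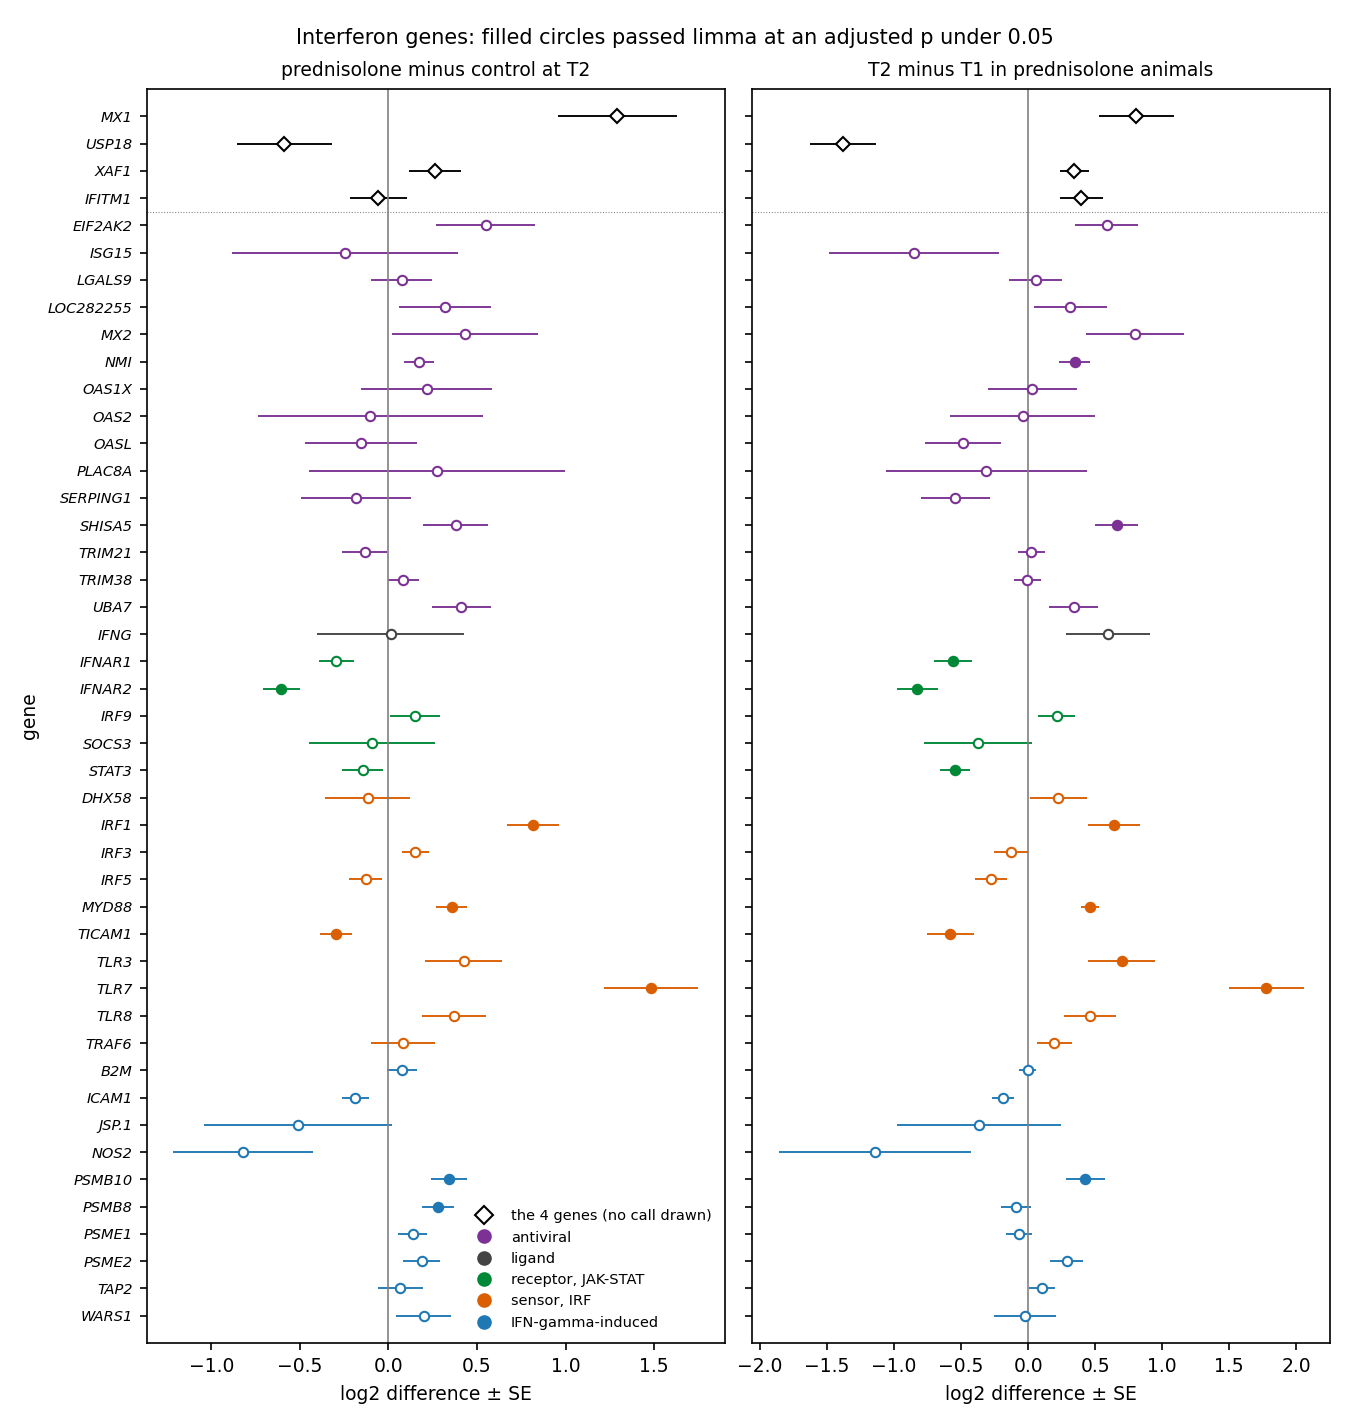
Log2 difference ± SE (horizontal axis) of the 4 genes and 41 other interferon genes, prednisolone minus control at T2 (left) and T2 minus T1 in prednisolone animals (right). Filled circles passed limma at an adjusted p under 0.05 and open circles did not, while the 4 genes are drawn as diamonds with no call. In the left panel no antiviral circle is filled, and TLR7 at 1.48 and IFNAR2 at -0.60 are among the filled ones.

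Markers of cell types moved in the same contrasts. CD14, the monocyte receptor for bacterial lipopolysaccharide, was lower in prednisolone animals than in controls at T2 by -1.11 ± 0.34 (limma adjusted p = 0.0328) and lower at T2 than at T1 in prednisolone animals by -2.33 ± 0.37 (adjusted p = 0.000159). The T2 difference passed in 7 of 15 fits that left out an animal and the fall in 8 of 8. CD14 was 1 of 6 tested monocyte genes to fall, and ITGAM rose by 0.46 ± 0.16 (adjusted p = 0.0344) but passed in only 2 of 8 fits that left out an animal, and not in 1 fit of all 30 arrays (adjusted p = 0.0625). The summed intensity of the 6 ran from 124789 to 231067 in prednisolone T2, 148657 to 293241 in prednisolone T1, 151570 to 242964 in control T2 and 100231 to 237748 in control T1. Of 7 T cell genes 4 rose in prednisolone animals, CD6, CD2, CD3G and CD8A, and CD2 was higher at T2 than in controls (0.32 ± 0.10, adjusted p = 0.0367), a call lost with the animal as a block (adjusted p = 0.0607) and in 9 of 15 fits that left out an animal. Within prednisolone animals CD6 passed in 8, CD2 in 6, CD3G in 4 and CD8A in 3 of 8 such fits. Of all genes, 21.9% rose within prednisolone animals and 11.0% were higher than in controls at T2. The summed intensity of the 7 ran from 61957 to 101289 in prednisolone T2, 55796 to 79388 in prednisolone T1, 63370 to 83386 in control T2 and 40532 to 83743 in control T1. Of 7 natural killer cell genes 1, NCR1, was higher in prednisolone animals at T2. That call was lost with the animal as a block (0.70 ± 0.27, limma adjusted p = 0.0809). It was also lost in several fits that left out an animal, such as control animal 17 (adjusted p = 0.0868) or prednisolone animal 26 (adjusted p = 0.0732). The median difference over the 7 went the other way, at -0.14 beside 0.04 for all genes. Of 2 plasma cell genes 1 fell between T1 and T2 in prednisolone animals. XBP1 passed with a negative interaction, but not without animals 28 and 32 (-0.445 ± 0.158, limma adjusted p = 0.0749). No tested monocyte or T cell marker was at the lowest intensity kept, though the dimmest 25% of genes had been left out beforehand. The part of any marker in the values of MX1, USP18, XAF1 and IFITM1 was not tested.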

How the data were processed

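The values were linear spot intensities as deposited in the authors' table of processed values, 1 column per array. Per the series text, slides were scanned at a high and a low setting and read with Feature Extraction 9.5, and the processed signal is detrended and background-subtracted. R 2.11.1 stands in the submitters' processing notes. A normalization between arrays and the rule behind missing values (17.16% of cells) were not given in the sources used here.

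Each array was scaled to a common 75th percentile over the 23055 complete features (at most 0.04 on the log2 scale), values under the 1st percentile (intensity 2.51) were raised to it, and log2 was taken. Features were named from the platform annotation, updated through RefSeq accessions and symbols: 6954 of 44407 features had 1 gene and the remaining 37453 were unnamed. A gene's value was the mean of its features within 0.25 of the brightest. Of 3269 genes, 2403 had values on at least 4 arrays of every group and a mean over all arrays outside the dimmest 25%, and all 4 genes were among them. Group differences were fitted with limma 3.58.1 in R 4.3.3, two-sided, without a block, with p-values adjusted by Benjamini-Hochberg over the 2403 genes and a threshold of 0.05. The limma step was tested on simulated data. Relations between genes used 100000 permutations of animals within treatment (scipy 1.17.1).

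The 4 genes, the interferon and marker lists and the tests were chosen with earlier results of these data known. From each list, up to 4 genes passing per comparison were named by smallest p, or the 2 of smallest p. The 2 arrays of an animal deviated together (r between 0.22 and 0.70 over 2181 genes, 14 of 15 animals closest to their own number), and the pairing comes from the animal numbers in the titles. Animals are the replicates. The number of arrays limits the precision, and slide and scan day were not used here.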

Additional observations from a re-analysis of the deposited data

Results flagged for a closer look

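For 2 of the 4 genes a single animal stood apart from the rest of its group by Dixon's test. It was run for each gene in every group, on the highest and the lowest value, and marks about 1 in 20 such sets by chance. The 2 sets below were the only ones marked. At T2 prednisolone animal 26 had a log2 value of 11.38 for USP18, with the next animal at 10.28, a gap of 0.63 of the group's range. The same animal had 13.79 for XAF1, with the next at 13.32, a gap of 0.58 of the range. Both values come from the same array, so they are not separate findings.

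The change between T1 and T2 differed between prednisolone and control animals, by the interaction term, for USP18 (-1.18) and for 5 other interferon genes. These were TLR7 (1.95), MYD88 (0.50), IFNAR1 (-0.62), IFNAR2 (-0.57) and STAT3 (-0.55) on the log2 scale. For USP18 the difference is a description, since the gene was chosen from these contrasts. MYD88 missed the threshold in the mean of all its features (limma adjusted p = 0.947), without animals 22 and 26 (0.0525) and without control animal 24 (0.0513). STAT3 and IFNAR2 missed it without animals 28 and 32 (limma adjusted p = 0.207 and 0.137) and without the filter on dim genes (0.053 and 0.0586). Both also missed it in most fits that left out 1 animal. The USP18 call was lost without animals 28 and 32 too.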

How the results depend on the processing

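The alternatives were the deposited values without scaling, quantile normalization, the brightest or all features of a gene, no filter on dim genes, a floor of 16, 1 fit of all 30 arrays, the animal as replicate block, and fits without animals 28 and 32. Fits without 1 animal were planned for the 4 genes, while those for the counts of interferon genes and all fits without animals 22 and 26 were chosen after seeing the data. Of 159 counts, 25 moved by more than 1.5 times and 134 did not. Genes passing at T1 numbered 8, against 5 with the brightest feature, 2 without the dim filter, 246 in 1 fit of 30 arrays, 231 with the animal as replicate block, 0 without animals 28 and 32 and 2 without 22 and 26. In controls 0 genes passed, against 6 in 1 fit and 3 with the replicate block, and the interaction's 436 genes were 224 without animals 28 and 32. Of the 41 interferon genes, the count at T1 was 0, against 1 in 1 fit and 1 with the replicate block (PSME1), and 0 to 1 with an animal left out. At T2 it was 7, against 4 in 1 fit and 4 with the replicate block, and 4 to 8 with an animal left out (4 without prednisolone animal 30). Within prednisolone animals it was 11, against 17 with the replicate block, 7 without animals 28 and 32, and 9 to 12 with an animal left out. For the interaction it was 5, against 3 without the dim filter, 11 with the replicate block, 3 without animals 28 and 32, and 2 to 7 with an animal left out (2 without control animal 24, and 3 without control animal 18 or prednisolone animal 25, 28 or 32). The causes were not tested. Under the replicate block the threshold calls of the 4 genes, which are descriptions, differed for IFITM1 at T1 (0.56 ± 0.18) and in the interaction (-0.62 ± 0.22), both then past it, and for no other. In 1 fit of all 30 arrays they differed for IFITM1 at T1 and for its T2 minus T1 difference in controls, both then past the threshold. No relation between the 4 genes passed under any alternative run.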

Other observations

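Some values of the 4 genes belong in no comparison above. MX1 was higher at T1 in prednisolone animal 29 than in any of the other 14 animals, at 11.66, and this was the only prednisolone animal in which MX1 was lower at T2, by -0.21. OAS1Z, of the OAS family, had values on 5 of 8 prednisolone and 2 of 7 control arrays at T2 and was not tested.

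Several limits apply. The array is an early bovine design, and only 16 of 68 listed antiviral genes had a named feature, 15 of them tested. IFITM1 rests on the platform's symbol. The labels do not place T1 and T2 relative to the dosing, and a time effect common to all animals is seen only in the 7 controls. Of the markers of plasmacytoid dendritic cells, which make much type I interferon, only GZMB was tested, and it is shared with natural killer cells. None of 3 neutrophil, 1 platelet and 2 erythroid genes tested passed in any comparison.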
